A study of Oryza longistaminata with 15 samples.

Results

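The comparison set the shoot tip (ST) against the young leaf (YL) of *Oryza longistaminata*, a wild perennial rice with long and strong rhizomes, on 6 of the 15 arrays of the series. All plants were wild type at the active tillering stage. ST was the distal 5 mm of a tiller with every leaf removed, and YL was young leaf of the same kind of plant. The series also held rhizome tip (RT, distal 1 cm), rhizome internode (RI) and shoot internode (SI), and each of the 5 tissues had 3 arrays. The labels describe the replicates as individual plants, but the methods describe the accession as kept as a single plant, so the p-values below measure the spread between these samples, which may be partly technical. Each sample was 5 µg of total RNA on a 1-colour Affymetrix rice array, whose probes were designed on cultivated rice. Members were all rice probe sets of the array, 57194 of the 57381 in the table, of which 21303 could be tested. A tested probe set exceeded a signal of 49.6, the 95th percentile of 64 reporter control probe sets, on all 3 arrays of at least 1 tissue. This signal is called the cutoff below.

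The labels of the tips need a word first. The tables of the paper that reported these arrays name the 2 tip groups the other way round. In all 424 rows of its tip comparison, the difference computed from the labelled arrays had the opposite direction. Groups here follow the sample labels, and the levels on the arrays labelled RT are given beside several results.

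A shoot tip holds the shoot apical meristem, the dome of dividing cells from which leaves and stem arise, together with leaf primordia and the youngest stem tissue. Class I KNOTTED1-like (KNOX) homeobox genes mark cells kept undetermined in that dome, and YABBY genes are switched on as lateral organs start to form. An expanding leaf blade instead builds chloroplasts: chlorophyll-binding antenna proteins feed light to photosystems I and II, and Rubisco fixes carbon dioxide in the Calvin cycle. Proteins of both processes are encoded partly in the nucleus and partly in the plastid genome.

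Large parts of the tested transcripts differed between ST and YL. Of 21303 tested probe sets, 4709 (22.1%) were higher in ST, 4971 (23.3%) were higher in YL and 11623 (54.6%) were not called. A call needed an adjusted p under 0.05 in limma and a difference over 2-fold. The median log2 difference, ST minus YL throughout, was 0.03, with an interquartile range of -1.02 to 0.98. All 3 ST arrays lay above all 3 YL arrays for 34.5% of the tested probe sets and below them for 34.1%.

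Large differences ran more often toward YL. To keep background from inflating a fold, signals under the cutoff were counted as the cutoff, and a fold is written "at least" where all 3 arrays of the lower tissue were under it. On this scale 1671 probe sets were over 4-fold higher in ST and 2336 over 4-fold higher in YL. Over 16-fold the counts were 222 for ST and 521 for YL, and over 64-fold they were 7 for ST and 66 for YL. The largest bounded log2 difference was 6.69 for ST and -7.42 for YL. In 2199 (46.7%) of the calls for ST every YL array was under the cutoff, and in 1741 (35.02%) of the calls for YL every ST array was.

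**Figure D1:**
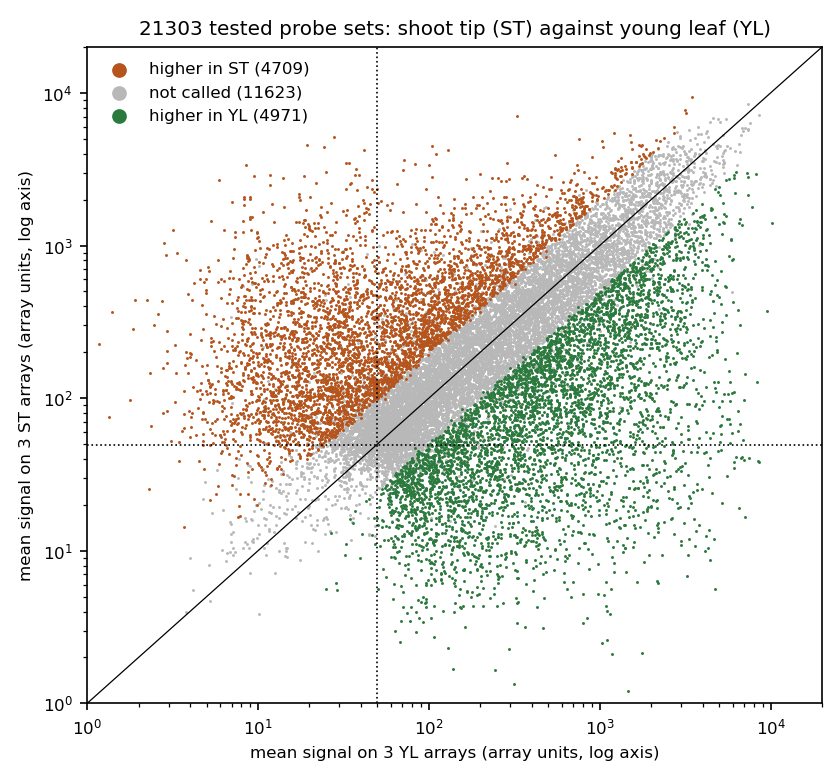
Mean signal of each of 21303 tested probe sets on the 3 ST arrays (vertical log axis) against the 3 YL arrays (horizontal log axis), in array units. Orange points are the 4709 called higher in ST, green the 4971 called higher in YL, grey the 11623 not called. Dotted lines mark the cutoff of 49.6 and the solid line marks equal signal. The green points spread farther from the line of equal signal than the orange ones.

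Counted by presence alone, 2177 probe sets were above the cutoff on all 3 ST arrays and under it on all 3 YL arrays, and 1893 showed the reverse. A total of 12693 were above it on all 6 arrays. Across 10935 probe sets above the cutoff in every tissue, ST and YL arrays correlated at r = 0.546 to 0.603, against 0.911 to 0.966 among the ST arrays and 0.933 to 0.946 among the YL arrays. These correlations run across probe sets, which are not independent replicates. Single arrays stood apart for few probe sets. Those most often apart were ST array 3, more than 4-fold under both other ST arrays for 136 tested probe sets, and YL array 2, more than 4-fold over both other YL arrays for 130.

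Leaf and tip markers were compared between the labelled tissues. Of the leaf markers, chlorophyll a-b binding protein 2 (Os01g41710), an antenna protein of photosystem II, read 16.6, 20.1 and 20.8 on the ST arrays, against 5027, 7264 and 7436 on the YL arrays. Phosphoribulokinase (Os02g47020), which regenerates the acceptor of carbon dioxide in the Calvin cycle, read 7.58, 8.57 and 9.84 on the ST arrays, against 3919, 5230.2 and 4146 on the YL arrays. The ST arrays were under the cutoff for both genes, so neither leaf marker was detected above background in the tip. Of the tip markers, the KNOX gene OSH1 (Os03g51690) read 2029.8, 1749 and 1783 in ST, against 11.1, 8.64 and 5.203 in YL, and the replication gene MCM3 (Os05g39850) 401, 346 and 369 in ST, against 4.15, 9.62 and 9.07 in YL. None of the YL arrays passed the cutoff for either. Other genes taken as tip markers, described below, did not all go this way. CEN-like genes and most YABBY genes were higher in ST, but a YABBY gene and histone H3 were not called. The knotted-1-like 3 genes and histone H2A were higher in YL. The root marker AGL12 was higher in ST. OSH1, MCM3 and both leaf markers separated ST from YL. Their names came from tables the study had drawn up on these same arrays, so this separation was no independent check of the tissues. OSH1 was also present in RT and the internodes, and chlorophyll a-b binding protein 2 was higher in RT than in ST, as given below. The markers were not used to check which tip an array holds. Granule-bound starch synthase 1 (Os06g04200), strong in the internodes, had 6 probe sets tested and none called. On the 1 with the highest internode signal, the mean was 107 ± 12.8 in ST, against 94.2 ± 28.5 in YL, and 6348 ± 369.9 in RI. Here and below, ± is the SD of 3 arrays beside a mean signal and, beside a log2 difference, the SE from limma, which pools the spread within all 5 tissues. In bulk tissue, fewer cells of a type and less RNA per cell cannot be told apart.

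A named function was known for 296 of the probe sets called higher in ST and 1515 of those called higher in YL. Names came from tables the study had drawn up on these same arrays, or from a gene symbol shared with them. The young leaf table was the largest, with 1973 tested probe sets. These counts and the rankings below thus depend on which genes the tables hold. Among the named probe sets, the 10 largest differences toward ST included secreted proteins and wall enzymes. A thionin (Os06g31960), of a family of small antimicrobial peptides, read 3347, 5626 and 3697 on the ST arrays, against 40.1, 46.3 and 38.7 on the YL arrays. It was at least 82.9-fold higher in ST (log2 difference 6.63 ± 1.48, adjusted p = 0.0022). A lipid transfer domain protein (Os01g0914300), from a family that carries lipids to the cuticle and other membranes, read 3701, 3149 and 3524 in ST, against 36.01, 33.6 and 29.2 in YL (at least 69.6-fold, adjusted p = 3.6e-05). The groups were far apart for both genes, with every YL array under the cutoff.

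A xyloglucan endotransglycosylase (Os06g0696400), which cuts and rejoins wall xyloglucan, read 3604, 3612 and 2946 in ST, against 8.28, 11.8 and 5.32 in YL on 1 probe set (at least 68.0-fold, log2 difference 8.71 ± 1.65, adjusted p = 7.0e-04). A second probe set of this gene was also called higher in ST (205 ± 60.6 in ST, against 24.3 ± 2.996 in YL). The third averaged 1551 ± 258 in ST, against 290.1 ± 192 in YL and was not called (log2 difference 2.78, 95% interval 0.29 to 5.27, adjusted p = 0.055). An AP2 domain protein (Os05g29810), of a family of plant transcription factors, read 3017, 2721 and 2904 in ST, against 19.05, 9.54 and 6.86 in YL (at least 58.02-fold, adjusted p = 4.5e-06). All 3 of its ST arrays lay close together.

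The other 6 of the 10 included 2 lipid transfer proteins and 2 proteinase inhibitors. Lipid transfer protein 4 (Os11g02350) was 51.3-fold higher in ST (3609 ± 618 in ST, against 71.98 ± 23.7 in YL), and a further lipid transfer domain protein (Os10g0554800) 45.6-fold (2310.2 ± 195 in ST, against 38.01 ± 13.8 in YL, 1 of 3 YL arrays above the cutoff). The Bowman-Birk trypsin inhibitor (Os01g03360), of a class that blocks digestive proteases, read 1285, 2960.3 and 1786 in ST, against 9.34, 8.17 and 7.26 in YL (at least 38.2-fold, adjusted p = 3.7e-04). The gene annotated as MPI (Os12g36220) read 1715, 3221 and 1341 in ST, against 12.5, 5.85 and 6.66 in YL (at least 39.3-fold, adjusted p = 0.0035). In both of these ST array 2 was the highest of its group. A glycosyl hydrolase of family 17 (Os01g53750), the family of β-1,3-glucanases, read 1401, 1301 and 1566 in ST, against 14.0, 12.2 and 10.9 in YL (at least 28.6-fold). OSH1 completed the 10 and is described with its family.

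**Figure D2:**
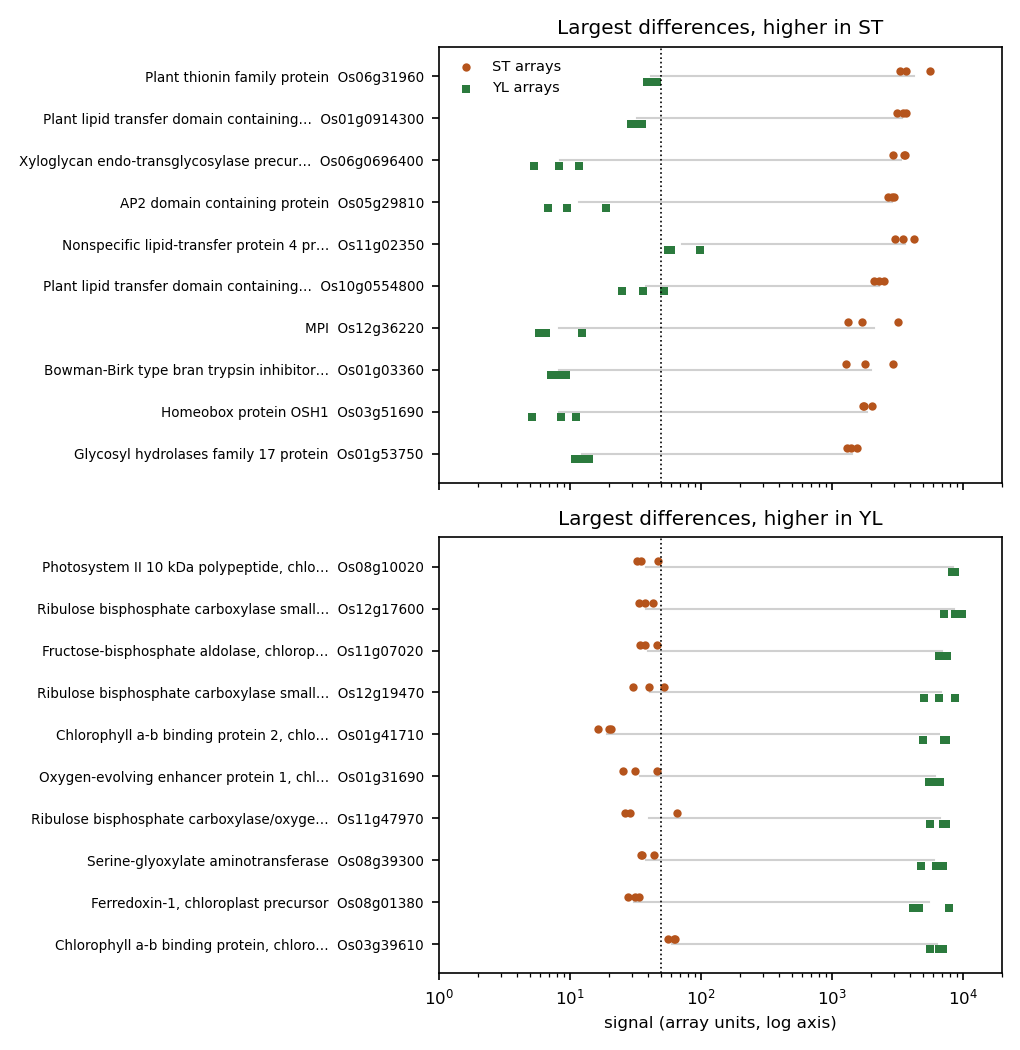
Signal on each array (log axis, array units) of the 10 named probe sets with the largest bounded difference toward ST (upper panel) and toward YL (lower panel). Orange circles are the 3 ST arrays, green squares the 3 YL arrays, the grey line joins the means and the dotted line is the cutoff of 49.6. The ST and YL arrays did not overlap in any of the 20 rows.

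Among the named probe sets, all 10 of the largest differences toward YL were photosynthesis genes. The photosystem II 10 kDa polypeptide (Os08g10020), a subunit near the oxygen-evolving centre, read 35.1, 33.01 and 47.7 on the ST arrays, against 8316, 8731 and 8431 on the YL arrays. It was at least 171-fold higher in YL (log2 difference -7.80 ± 0.35, adjusted p = 1.1e-08). A small subunit of Rubisco (Os12g17600) read 33.7, 43.3 and 37.6 in ST, against 7166, 9828 and 8683 in YL (at least 171-fold, adjusted p = 2.9e-08). Every ST array was under the cutoff for both genes, and no ST array came near a YL array.

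A second Rubisco small subunit (Os12g19470) was 132-fold higher in YL (40.9 ± 10.99 in ST, against 6836 ± 1833 in YL, 1 of 3 ST arrays above the cutoff). Chloroplast fructose-bisphosphate aldolase (Os11g07020), a Calvin cycle enzyme, was at least 140.3-fold higher (39.6 ± 6.34 in ST, against 6975 ± 587 in YL). Oxygen-evolving enhancer protein 1 (Os01g31690), which shields the manganese cluster of photosystem II, was at least 123.3-fold higher (34.8 ± 10.8 in ST, against 6134 ± 566 in YL). Each of these 3 genes was at or near background in ST.

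Rubisco activase (Os11g47970), which frees Rubisco of inhibitory sugar phosphates, read 66.0, 28.97 and 26.7 in ST, against 5680.2, 7432 and 7057 in YL (122-fold, 1 of 3 ST arrays above the cutoff). Serine-glyoxylate aminotransferase (Os08g39300) of photorespiration was at least 121-fold higher in YL (38.3 ± 5.14 in ST, against 6075 ± 1137 in YL). Ferredoxin-1 (Os08g01380), which takes electrons from photosystem I, was at least 108-fold higher (31.02 ± 3.06 in ST, against 5592 ± 2051 in YL). The antenna proteins Os01g41710 and Os03g39610 were at least 131-fold and 105-fold higher, and only Os03g39610 was above the cutoff on the ST arrays.

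Gene groups were described by annotation. Of 411 tested members of 23 groups, 366 stood in a table that the study had drawn up on these same arrays, for 1 tissue or for the difference between the tips, and 44 were other probe sets that share a gene symbol with one of these. The remaining 1 was named by its platform symbol. The direction of a group was thus largely set by how its genes got their names, and its count is a description and no independent evidence. Beside the 22.1% and 23.3% of all tested probe sets, the 18641 in none of these tables had 4341 (23.3%) higher in ST and 2989 (16.03%) higher in YL. A group's median log2 difference is followed by its bounded median, with signals under the cutoff counted as the cutoff.

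Light harvesting and photosystem genes were higher in YL almost throughout. Of 67 tested probe sets, 66 were higher in YL, none in ST, and 1 (Os08g44680, photosystem I subunit II, second probe set) was not called (32.6 ± 1.12 in ST, against 83.6 ± 19.1 in YL). The median log2 difference was -5.95 (bounded -5.27), against 0.03 over all tested probe sets. Of the 67, 35 were under the cutoff on all 3 ST arrays and none was under it on all 3 YL arrays.

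Within photosystem I, subunit VI (Os05g48630) read 13.8, 14.6 and 12.6 in ST, against 4097, 4724 and 4335 in YL, and subunit V (Os09g30340) 10.1, 8.58 and 9.56 in ST, against 2302, 2504 and 2101 in YL. The antenna gene Os08g33820 had 3 probe sets, and its lowest read 2.07, 3.61 and 1.78 in ST, against 887, 1464 and 742 in YL. These were log2 differences of -8.33 ± 0.21, -7.93 ± 0.26 and -8.70 ± 0.30, but with signals under the cutoff set to it they were at least 88.3-fold, at least 46.3-fold and at least 19.9-fold differences. PGR5 (Os08g45190), which supports cyclic electron flow around photosystem I, read 25.2, 26.96 and 15.96 in ST, against 2843, 3756 and 3359 in YL (at least 66.5-fold higher in YL, adjusted p = 4.2e-09).

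Genes of the carbon cycle ran the same way. In carbon fixation and photorespiration 30 of 32 tested probe sets were higher in YL and none in ST, with a median log2 difference of -6.60 (bounded -5.84). Phosphoribulokinase had the lowest fitted difference, -9.00 ± 0.26, and was at least 88.6-fold higher in YL (adjusted p = 5.7e-10). Rubisco large subunit probes, which match a plastid gene, gave a smaller difference: Os05g35330 read 1036, 1555 and 1609.9 in ST, against 9707, 10542 and 10178 in YL (7.38-fold higher in YL, adjusted p = 1.3e-04). The 2 exceptions were a glycine cleavage T-protein (Os06g04380) (153 ± 6.104 in ST, against 162 ± 26.6 in YL) and 1 of 2 transketolase probe sets (Os06g04270). The uncalled transketolase probe set averaged 699 ± 483 in ST, against 668 ± 489 in YL, and the called one 1608 ± 199.6 in ST, against 5319 ± 800.4 in YL.

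Leaf genes were low in ST but not equally low in both tips. The light harvesting group had a median signal of 39.1 in ST, 205 in RT, 93.6 in RI, 1675 in SI and 3063 in YL. In the carbon fixation group these medians were 43.9, 193, 98.5, 1177 and 4476 in the same order. Chlorophyll a-b binding protein 2 averaged 1877 ± 119.9 on the arrays labelled RT (ST minus RT log2 difference -6.62, adjusted p = 3.1e-08).

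Of all tested probe sets, 41 (0.192%) were called higher in ST than RT and 143 (0.671%) higher in RT. Those 143 held 33 of the 67 light harvesting and 13 of the 32 carbon fixation probe sets, whereas none of either group was among the 41. Many members of both groups were named from the study's own tip comparison on these arrays. Their overlap with the 143 was thus largely set in advance and is no independent evidence. Set against YL, the RT arrays gave 4878 probe sets (22.9%) higher in RT and 4738 (22.2%) higher in YL, beside the 4709 and 4971 of ST. Both comparisons share the YL arrays. Whether the 2 tips were interchanged in the labels or in the tables was not tested.

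**Figure D3:**
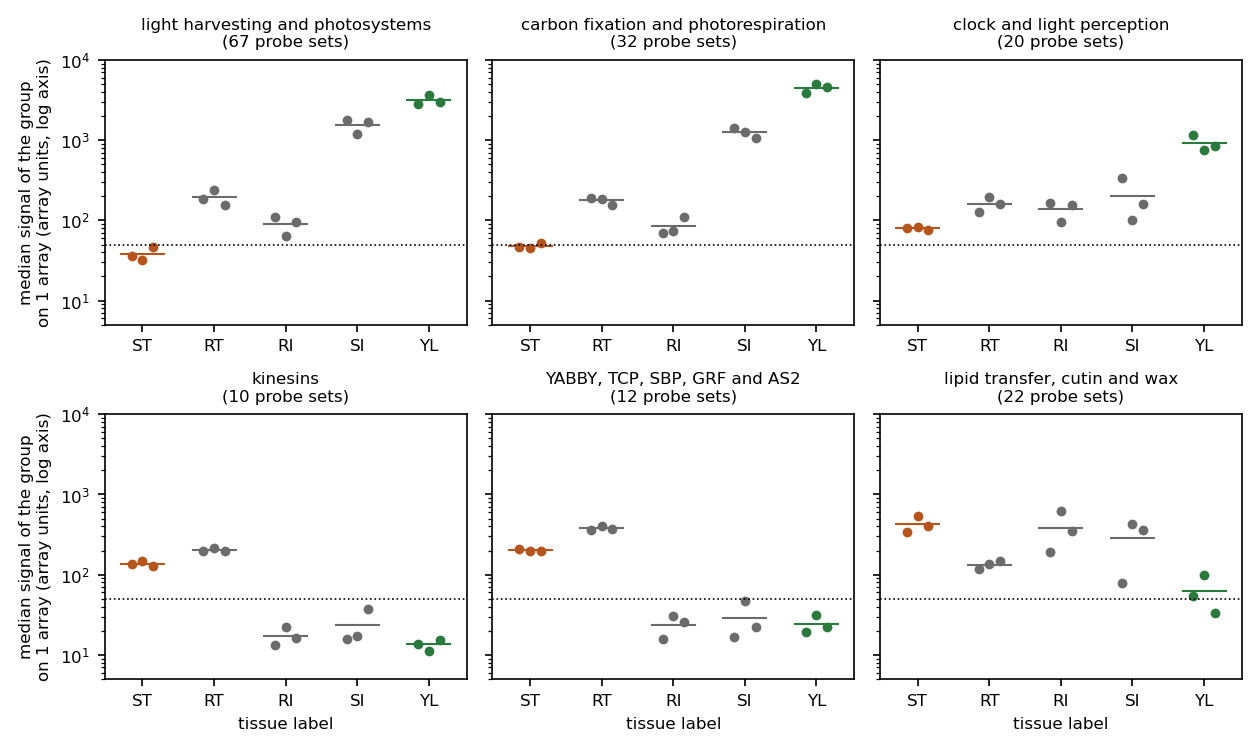
Median signal of 6 gene groups on each of the 15 arrays (log axis, array units), by tissue label, with a line at the mean of the 3 arrays of a tissue and a dotted line at the cutoff of 49.6. The light harvesting and carbon fixation medians are lowest in ST and highest in YL, with RT between 100 and 300 on each array. The kinesin and YABBY, TCP, SBP, GRF and AS2 medians are above the cutoff only in ST and RT.

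Genes of plastid gene expression, chloroplast proteases and import, and pentatricopeptide repeats were higher in YL to a lesser degree. The names of the pentatricopeptide and mTERF genes do not say which organelle they serve. Among plastid ribosome and gene expression genes, 45 of 48 were higher in YL and 1 in ST, with a median log2 difference of -2.81 (bounded -2.80). Chloroplast proteases and import gave 29 of 30 higher in YL (median -2.65, bounded -2.49), and pentatricopeptide repeat proteins, which edit and process organelle RNA, 38 of 43 (median -2.71, bounded -2.01). These medians lay closer to 0 than those of the photosystem and carbon groups.

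Chloroplast ribosomal protein L12-1 (Os05g49320) read 10.2, 13.5 and 33.3 in ST, against 2220.5, 2169 and 2131 in YL (at least 43.8-fold higher in YL, adjusted p = 1.7e-05). The FtsH protease (Os06g0725900), of the family that clears damaged photosystem II protein, read 84.4, 137 and 51.4 in ST, against 3108, 3413 and 3448 in YL (39.5-fold, adjusted p = 1.4e-06). A pentatricopeptide protein (Os02g46980) read 20.8, 22.3 and 24.9 in ST, against 1842, 2100.5 and 1793 in YL (at least 38.5-fold), with 240.4 ± 12.3 on the RT arrays. The single exception toward ST was an mTERF protein (Os11g10040), of a family that regulates organelle transcription. It read 39.3, 37.1 and 45.8 in ST, against 5.79, 5.59 and 11.1 in YL, so that all 6 arrays were under the cutoff and no fold is given.

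Pigment synthesis followed with 22 of 24 tested probe sets higher in YL and 1 in ST (median log2 difference -2.75, bounded -2.45). Phytoene synthase (Os06g51290), the entry step to carotenoids, read 40.4, 47.9 and 46.1 in ST, against 2566, 2869.98 and 2663 in YL (at least 54.4-fold higher in YL). Chlorophyll a oxygenase (Os10g41780), which makes chlorophyll b, read 75.05, 111 and 80.3 in ST, against 3836, 3637 and 3327 in YL (41.1-fold, adjusted p = 3.1e-07). Protochlorophyllide reductase A (Os04g58200), which makes chlorophyllide in the light, was not called, at 383, 331 and 605 in ST, against 259, 779 and 150.1 in YL (log2 difference 0.45, 95% interval -0.59 to 1.48, adjusted p = 0.45). Here the YL arrays were spread over a wider range than the ST arrays and overlapped them.

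For a magnesium chelatase family gene (Os07g46310) the 2 probe sets were called in opposite directions. One averaged 48.2 ± 4.17 in ST, against 1489 ± 378 in YL, and the other read 147, 156 and 115 in ST, against 10.8, 25.02 and 35.8 in YL. The second is an s_at set, which can match more than 1 transcript. Across all named plastid or chloroplast products, 150 of 166 tested probe sets were higher in YL and 3 in ST. For those in the study's tissue tables the direction was largely set by the tables. Of the 43 outside the tissue tables, 32 were higher in YL and 1 in ST. These 43 were themselves named through the study's tip comparison or a shared gene symbol.

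**Figure D4:**
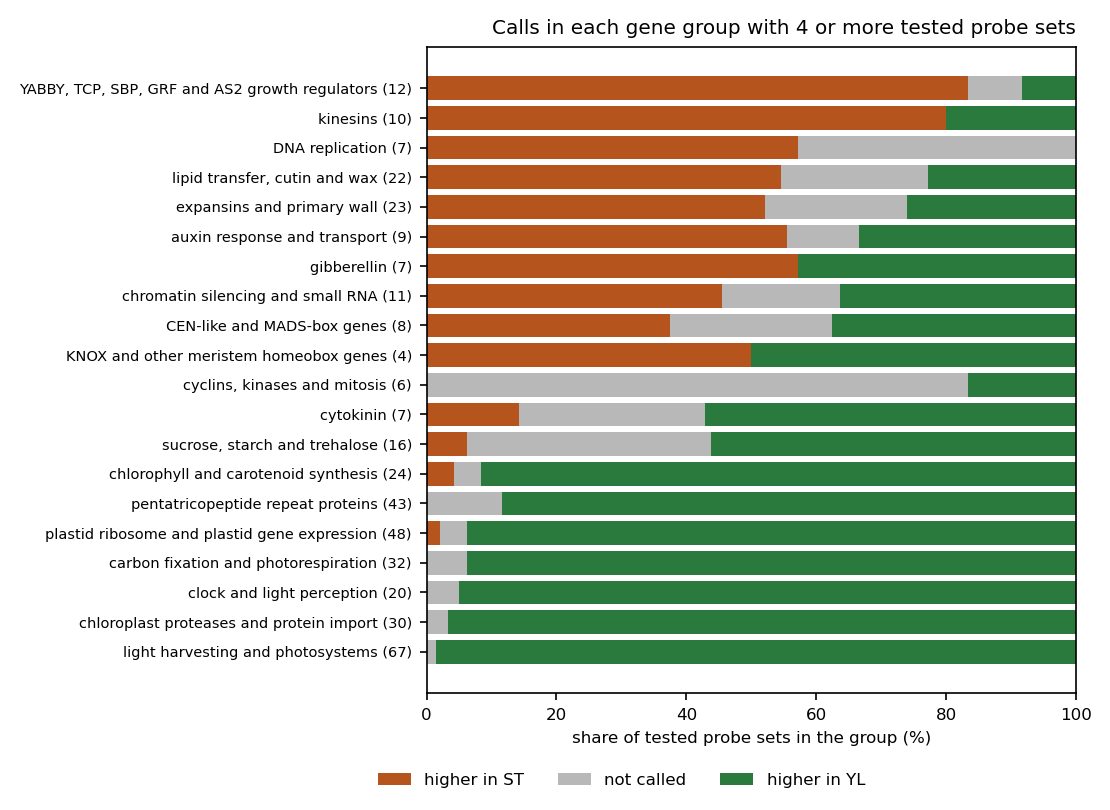
Share of tested probe sets called higher in ST (orange), not called (grey) and higher in YL (green) in each gene group with at least 4 tested probe sets, the number tested in parentheses, on an axis of 0 to 100%. Photosynthesis and chloroplast groups are almost wholly green. Kinesins and the YABBY, TCP, SBP, GRF and AS2 group are mostly orange, with hormone and wall groups split.

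Clock and light perception genes were also higher in YL, 19 of 20 tested probe sets, with a median log2 difference of -3.10 (bounded -2.86). A CCT motif protein (Os03g50310) read 31.7, 28.6 and 40.4 in ST, against 2804, 2789 and 3352 in YL (at least 59.9-fold higher in YL, adjusted p = 7.4e-08). CONSTANS (Os04g42020), a relay from day length to flowering, read 28.3, 54.7 and 30.5 in ST, against 3073, 3209.6 and 3248 in YL (61.97-fold, 1 of 3 ST arrays above the cutoff). The phototropism gene RPT2 (Os12g02530) read 14.6, 20.2 and 16.5 in ST, against 2039.6, 1083 and 1888 in YL (at least 32.5-fold, adjusted p = 4.3e-05). In all 3 genes every YL array lay far above the cutoff.

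Smaller differences were found for early flowering 3 (Os06g05060), a component of the evening complex of the clock, at 86.5, 105 and 115 in ST, against 475, 475 and 531 in YL (4.87-fold higher in YL, adjusted p = 2.7e-04). The blue light receptors annotated ZEITLUPE were 3.90-fold (Os06g47890) and 3.47-fold (Os02g05700) higher in YL. Of 2 early flowering 4 genes, Os03g29680 was at least 6.51-fold higher in YL (44.1 ± 5.03 in ST, against 329 ± 73.7 in YL). The other, Os11g40610, read 445, 413 and 306 in ST, against 550.3, 393 and 235 in YL and was not called (log2 difference 0.05, 95% interval -0.92 to 1.01, adjusted p = 0.93). The YL arrays of the second gene spanned the ST arrays.

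The KNOX family split by member, with 2 of 4 tested probe sets higher in ST and 2 higher in YL. OSH1, the rice class I KNOX gene that maintains the shoot meristem, read 2029.8, 1749 and 1783 on the ST arrays, against 11.1, 8.64 and 5.203 on the YL arrays. It was at least 37.3-fold higher in ST (log2 difference 7.86 ± 0.27, adjusted p = 1.6e-09), and a second probe set read 1012, 786 and 808 in ST, against 1.12, 3.52 and 4.06 in YL (at least 17.4-fold). OSH1 was not confined to ST, since its first probe set averaged 1212 ± 196 in RT, 946 ± 154 in RI and 833 ± 186 in SI. Both genes annotated knotted-1-like 3, a name used in Arabidopsis for class II KNOX genes of mature tissue, were higher in YL. Os06g43860 read 99.9, 188 and 78.6 in ST, against 2343, 2514 and 2017 in YL (20.03-fold higher in YL, adjusted p = 1.7e-07), and Os08g19650 183, 388 and 148 in ST, against 1929, 1530.5 and 1363 in YL (7.27-fold, adjusted p = 5.3e-05). No ST array overlapped a YL array in any of the 4 probe sets.

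Regulators of young organs were mostly higher in ST. In the group of YABBY, TCP, SBP, GRF and AS2 genes 10 of 12 tested probe sets were higher in ST and 1 in YL, with a median log2 difference of 3.15 (bounded 1.68, since 7 of the 12 were under the cutoff on all 3 YL arrays). yabby14 (Os04g45330) read 725, 715 and 849 in ST, against 18.2, 11.5 and 11.4 in YL (at least 15.3-fold higher in ST, log2 difference 5.83 ± 0.30, adjusted p = 2.8e-08). A further YABBY gene (Os07g06620) read 424, 639 and 564 in ST, against 15.6, 61.7 and 8.83 in YL (10.02-fold, 1 of 3 YL arrays above the cutoff, adjusted p = 9.6e-04), and YABBY2 (Os07g0160100) 211, 259.7 and 381 in ST, against 18.9, 53.6 and 28.4 in YL (5.41-fold, 1 of 3 YL arrays above the cutoff). YL array 2 was the highest leaf array for both. The fourth YABBY gene (Os03g44710) read 210.02, 214 and 236 in ST, against 125, 272 and 109 in YL and was not called (log2 difference 0.51, 95% interval -0.65 to 1.66, adjusted p = 0.44).

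TCP genes, of a family that regulates cell proliferation in growing organs, were higher in ST. Os03g49880 averaged 267 ± 36.6 in ST, against 11.8 ± 4.03 in YL (at least 5.36-fold), and Os03g57190 149 ± 24.5 in ST, against 35.5 ± 6.05 in YL (at least 2.97-fold). SBP-domain protein 5 (Os08g39890) read 134, 95.4 and 163 in ST, against 6.19, 5.71 and 3.48 in YL (at least 2.58-fold, adjusted p = 3.4e-06). A growth-regulating factor (Os06g02560), of a family that promotes cell proliferation in leaf primordia, was at least 4.44-fold higher in ST (247 ± 122 in ST, against 25.4 ± 4.93 in YL), and the SBP-box gene OsSPL17 (Os09g31438) at least 2.21-fold (116 ± 46.8 in ST, against 10.3 ± 2.66 in YL). AS2 genes, named for a repressor of KNOX genes in Arabidopsis leaves, went both ways. Os01g66590 read 84.6, 108 and 139 in ST, against 19.9, 22.8 and 12.5 in YL (at least 2.18-fold higher in ST), whereas Os05g34450 read 62.1, 62.8 and 71.96 in ST, against 142, 197 and 149 in YL (2.46-fold higher in YL, adjusted p = 0.0036).

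On the arrays labelled RT the mean was above that of ST for 8 of these 12 probe sets, and the tips differed past the threshold for 3 of the 12, 1 higher in ST and 2 higher in RT. yabby14 averaged 1309 ± 127 in RT (ST minus RT log2 difference -0.78, adjusted p = 0.39), SBP-domain protein 5 412 ± 22.8 (ST minus RT log2 difference -1.69, adjusted p = 0.15) and TCP gene Os03g57190 462 ± 129 (ST minus RT log2 difference -1.62, adjusted p = 0.0065). The difference between tips passed the test only for the last of these 3. TCP gene Os03g49880 had the opposite order, with 52.2 ± 20.8 in RT (ST minus RT log2 difference 2.42, adjusted p = 0.019).

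**Figure D5:**
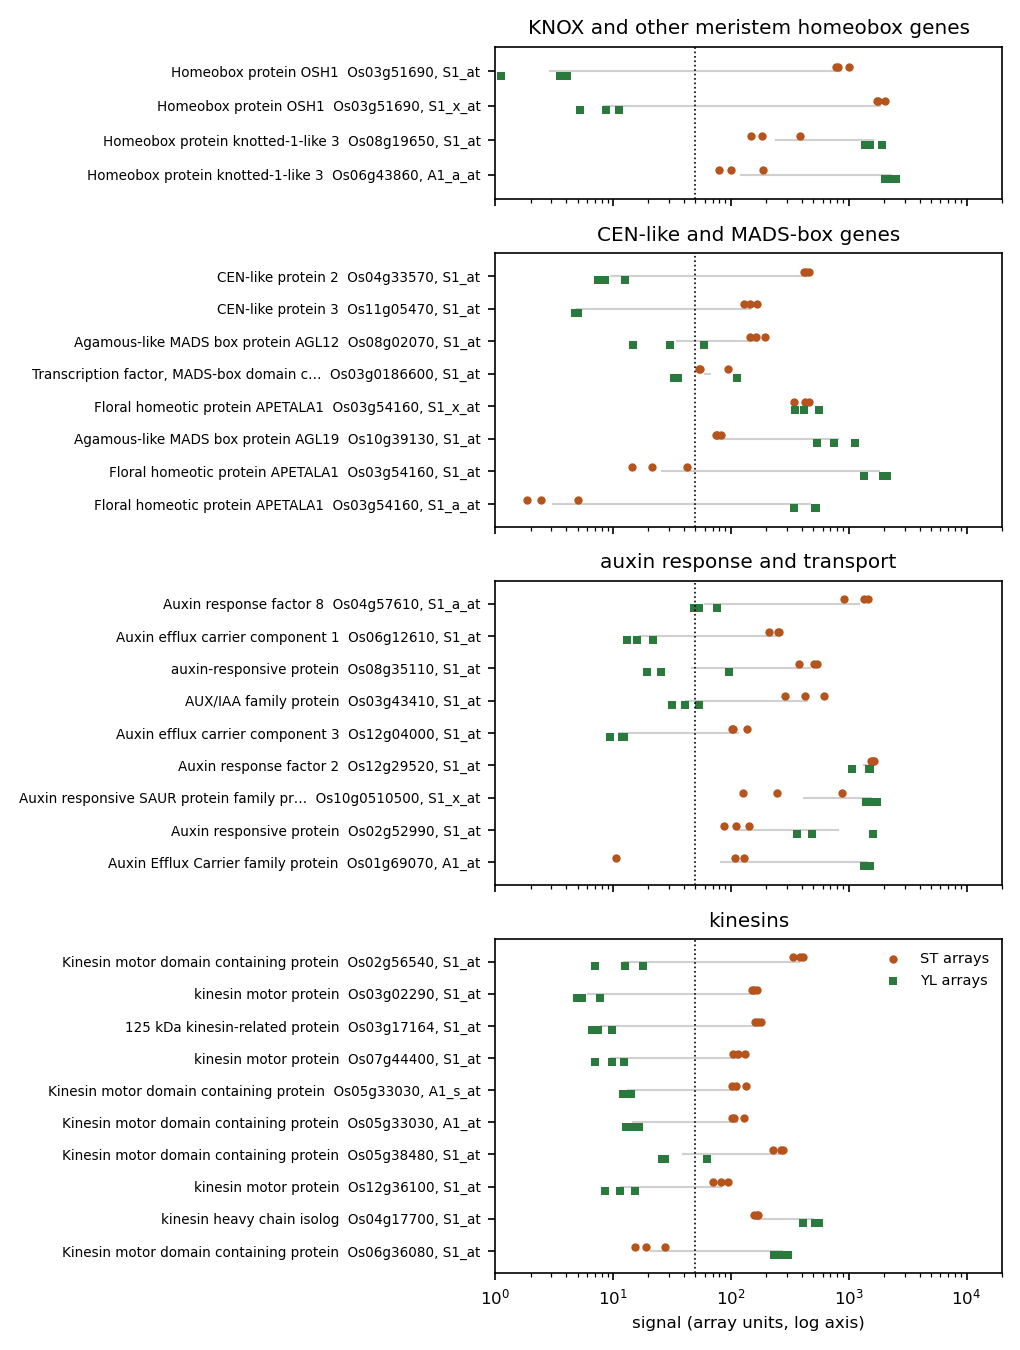
Signal on each array (log axis, array units) for every tested probe set of 4 gene groups with members in both directions, with the locus and the ending of the probe set name. Orange circles are ST arrays, green squares YL arrays, the grey line joins the means and the dotted line is the cutoff of 49.6. OSH1, CEN-like 2 and 3 and 8 kinesin probe sets lie to the right in ST, whereas knotted-1-like 3, AGL19 and 2 APETALA1 probe sets lie to the right in YL.

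CEN-like genes, relatives of the Antirrhinum gene that keeps an inflorescence meristem indeterminate, were higher in ST. CEN-like protein 2 (Os04g33570) read 437, 458 and 420.1 in ST, against 12.7, 7.52 and 8.62 in YL (at least 8.84-fold, log2 difference 5.55 ± 0.48, adjusted p = 1.4e-06), and CEN-like protein 3 (Os11g05470) 145, 129 and 167 in ST, against 4.79, 5.04 and 4.98 in YL (at least 2.94-fold, adjusted p = 7.7e-05). CEN-like protein 2 averaged 49.4 ± 29.4 in RT, so the tips also differed (ST minus RT log2 difference 3.34, adjusted p = 0.0041). Its mean was 47.3 ± 10.3 in RI and 19.4 ± 13.6 in SI, both under the cutoff.

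MADS-box genes, best known for floral organ identity, ran in both directions. AGL12 (Os08g02070), a gene of roots in Arabidopsis, read 196, 165 and 145 in ST, against 59.6, 30.3 and 14.7 in YL (3.17-fold higher in ST, 1 of 3 YL arrays above the cutoff). AGL19 (Os10g39130) read 74.4, 76.4 and 83.3 in ST, against 1135, 756 and 539 in YL (9.92-fold higher in YL, adjusted p = 2.0e-04). The gene annotated APETALA1 (Os03g54160) read 21.6, 42.3 and 14.5 in ST, against 2133, 1344 and 1962 in YL (at least 35.9-fold higher in YL), and a second probe set was also higher in YL. The third probe set, an x_at set that can match related genes, read 426, 345 and 458 in ST, against 564, 349 and 418 in YL and was not called. Over the whole group 3 of 8 tested probe sets were higher in ST and 3 in YL.

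Cell division genes were taken by function, in small groups. DNA replication had 4 of 7 tested probe sets higher in ST and none in YL. MCM3 (Os05g39850), part of the replicative helicase, read 401, 346 and 369 in ST, against 4.15, 9.62 and 9.07 in YL (at least 7.49-fold higher in ST, log2 difference 5.70 ± 0.60, adjusted p = 6.1e-06). A second MCM3 locus (Os05g39840) was at least 1.85-fold higher (93.2 ± 21.3 in ST, against 16.3 ± 0.817 in YL), and a DNA polymerase III delta subunit family gene (Os05g45340) at least 2.82-fold (140.4 ± 13.3 in ST, against 13.7 ± 0.855 in YL). Replication factor A protein 1 (Os05g02040) was under 2-fold, at 820.5, 744 and 815 in ST, against 473, 343 and 554 in YL (log2 difference 0.82, 95% interval 0.12 to 1.52, adjusted p = 0.045).

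Kinesins, motors of the spindle and of vesicle transport, had 8 of 10 tested probe sets higher in ST and 2 in YL, with a median log2 difference of 3.02 (bounded 1.22, since 7 of the 10 were under the cutoff on all 3 YL arrays). Os02g56540 read 413, 386 and 334 in ST, against 12.5, 6.97 and 18.03 in YL (at least 7.58-fold higher in ST, adjusted p = 6.6e-06). The 125 kDa kinesin-related protein (Os03g17164) read 179, 169 and 159 in ST, against 9.86, 6.65 and 7.39 in YL (at least 3.402-fold), and Os03g02290 157, 167 and 150.4 in ST, against 5.495, 4.95 and 7.83 in YL (at least 3.19-fold). The other 2 loci went the opposite way: Os06g36080 read 19.1, 27.9 and 15.5 in ST, against 269, 234 and 304 in YL (at least 5.397-fold higher in YL), and Os04g17700 156, 166 and 171 in ST, against 519.5, 413 and 556 in YL (2.997-fold). The groups did not overlap for any of these 5 genes.

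Few cyclin and histone probe sets carried a name from the study's tables. Others may be among the tested probe sets without a name, so these few do not describe either family. Of 6 cyclin, kinase and mitosis probe sets 5 were not called, with a median log2 difference of 0.76 (bounded 0.47) over the 6, and 1 cyclin (Os02g53990) was higher in YL at 37.5, 44.02 and 43.2 in ST, against 108, 104 and 106 in YL (at least 2.14-fold). The cyclin Os12g39830 read 281, 229.9 and 249 in ST, against 179.7, 156 and 157 in YL on 1 probe set (log2 difference 0.62, 95% interval 0.19 to 1.05, adjusted p = 0.017), so ST was above YL but by less than 2-fold. Its other probe set read 89.9, 100.01 and 133 in ST, against 19.9, 229 and 19.6 in YL, where YL array 2 alone was high. Histone H2A (Os07g36140) read 2637, 2859 and 1574 in ST, against 5293, 4639 and 4292 in YL and was 2.07-fold higher in YL (adjusted p = 0.0059). This call was lost under the 2-fold minimum without ST array 3 (log2 difference -0.78) and without YL array 1 (-0.97). Histone H3 (Os06g04030) averaged 4101 ± 124 in ST, against 6604 ± 690.3 in YL (log2 difference -0.68, 95% interval -1.19 to -0.17, adjusted p = 0.026).

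Auxin genes included strong members in both directions, 5 of 9 tested probe sets higher in ST and 3 in YL. Auxin response factor 8 (Os04g57610), a transcription factor that acts on auxin-responsive promoters, read 1338, 1455 and 912 in ST, against 76.3, 54.2 and 49.01 in YL (20.5-fold higher in ST, 2 of 3 YL arrays above the cutoff, adjusted p = 6.5e-07). Auxin response factor 2 (Os12g29520) read 1623, 1639 and 1538 in ST, against 1519, 1066 and 1477 in YL and was not called (log2 difference 0.26, 95% interval -0.46 to 0.97, adjusted p = 0.53). Efflux carriers differed by member: component 1 (Os06g12610) read 209.8, 250.2 and 259 in ST, against 22.03, 15.95 and 13.1 in YL (at least 4.81-fold higher in ST), and component 3 (Os12g04000) was at least 2.28-fold higher (114 ± 18.8 in ST, against 11.3 ± 1.62 in YL). An efflux carrier family protein (Os01g69070) instead read 10.6, 108 and 130.5 in ST, against 1518, 1455 and 1353 in YL (16.2-fold higher in YL, 2 of 3 ST arrays above the cutoff, adjusted p = 0.0036), with ST array 1 an order of magnitude under the other ST arrays.

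Gibberellin genes showed 4 of 7 tested probe sets higher in ST and 3 in YL. Gibberellin 2-beta-dioxygenase (Os01g55240), which inactivates the hormone, read 405, 918 and 442 in ST, against 27.3, 8.35 and 14.3 in YL (at least 11.05-fold higher in ST, adjusted p = 8.0e-05). A gibberellin-regulated protein (Os06g51320) read 1079.6, 1031 and 1030.2 in ST, against 16.1, 12.6 and 18.9 in YL (at least 21.1-fold, adjusted p = 0.0015). Ent-kaurenoic acid oxidase 2 (Os06g0110000), a step of gibberellin synthesis, was 8.61-fold higher in YL at 91.4, 169.8 and 97.7 in ST, against 1145, 802 and 1054 in YL (adjusted p = 1.3e-05). No array of one tissue overlapped the other in these 3 genes. Other genes of gibberellin synthesis were called higher in ST, namely ent-kaurene synthase A (Os02g17780) and GA20OX3. GA20OX3 read 108.9, 185 and 86.0 in ST, against 74.8, 39.01 and 27.2 in YL (2.11-fold higher in ST, adjusted p = 0.0059).

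In the cytokinin group 1 of 7 tested probe sets was higher in ST and 4 in YL. The gene annotated as cytokinin-repressed protein CR9 (Os01g01340) entered the group by its name alone. It read 167, 184 and 80.6 in ST, against 7038, 6834 and 7511 in YL (52.7-fold higher in YL, adjusted p = 4.2e-05). Cytokinin-O-glucosyltransferase 3 (Os10g09990), which stores the hormone as a glucoside, was at least 17.6-fold higher in YL (16.9 ± 4.07 in ST, against 885 ± 194 in YL). The receptor CRE1b (Os03g50860) read 238, 195 and 223 in ST, against 59.7, 46.5 and 77.01 in YL (3.56-fold higher in ST, 2 of 3 YL arrays above the cutoff, adjusted p = 2.1e-04). A response regulator annotated ARR3 (Os04g57720) read 479, 598 and 667 in ST, against 193, 252 and 1188 in YL and was not called (log2 difference 0.58, 95% interval -0.66 to 1.81, adjusted p = 0.41).

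Primary wall genes were more often higher in ST than in YL, 12 against 6 of 23 tested probe sets. Alpha-expansin 10 (Os03g21820), which loosens the wall at low pH, read 675, 497 and 743 in ST, against 9.67, 11.9 and 11.9 in YL (at least 12.7-fold higher in ST, adjusted p = 3.6e-04). A cluster of proline-rich protein genes was also higher in ST. Os10g06000 read 605, 510.4 and 921 in ST, against 8.23, 4.99 and 7.32 in YL (at least 13.3-fold, adjusted p = 0.013), Os10g05990 409.5, 455 and 892 in ST, against 5.99, 8.08 and 4.998 in YL (at least 11.1-fold) and Os10g05970 665, 723 and 1324 in ST, against 10.7, 18.6 and 12.2 in YL (at least 17.3-fold, adjusted p = 0.029).

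The call of Os10g05970 was lost, at adjusted p between 0.055 and 0.076 in limma, on leaving out ST array 1, 2 or 3 or YL array 1, 2 or 3, although its 3 ST arrays all exceeded its 3 YL arrays. Its neighbour Os10g05980 was not called at 167, 94.05 and 387 in ST, against 10.5, 14.9 and 6.64 in YL (log2 difference 4.17, 95% interval -0.10 to 8.44, adjusted p = 0.089). The internode arrays varied widely for these genes, with 1109 ± 1095 in RI and 1559.7 ± 1343 in SI for Os10g05990. Wall genes higher in YL included cellulose synthase-like CslE (Os09g30120) at 20.7, 32.6 and 24.3 in ST, against 1958, 1181 and 1317 in YL (at least 29.2-fold, adjusted p = 6.1e-06). A pectin acetylesterase (Os01g66850) read 60.8, 305 and 41.8 in ST, against 1111, 1498 and 1191 in YL (12.9-fold, 2 of 3 ST arrays above the cutoff), with ST array 2 above the other ST arrays.

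Secondary wall genes gave 2 of 2 tested probe sets higher in ST at low signal. COBRA-like protein 2 (Os03g30260) read 97.04, 100.1 and 45.7 in ST, against 17.6, 25.2 and 21.9 in YL (at least 1.58-fold higher in ST, adjusted p = 2.6e-04). A dirigent-like protein (Os07g44920), of a family that guides lignan and lignin coupling, read 21.7, 57.1 and 19.4 in ST, against 11.01, 10.5 and 11.4 in YL (adjusted p = 0.032), but only ST array 2 exceeded the cutoff. Its call was lost without ST array 2 (log2 difference 0.90) and without YL array 1, 2 or 3 (1.37 to 1.42).

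Lipid transfer, cutin and wax genes had 12 of 22 tested probe sets higher in ST and 5 in YL. A GDSL lipase (Os04g42860), of a family with cutin synthases, read 987, 1466 and 1243 in ST, against 7.68, 6.29 and 8.05 in YL (at least 24.5-fold higher in ST, adjusted p = 1.3e-04). A beta-ketoacyl-CoA synthase (Os10g33370), which elongates wax precursors, was at least 3.76-fold higher (188 ± 31.4 in ST, against 14.5 ± 1.71 in YL). A cluster of lipid transfer genes on chromosome 12 held both directions. Os12g02290 read 413, 488 and 662 in ST, against 10.4, 8.94 and 6.47 in YL (at least 10.3-fold higher in ST), whereas Os12g02330 read 271, 1154 and 171 in ST, against 5116, 6149.6 and 5109.6 in YL (14.4-fold higher in YL) and Os12g02320 45.3, 165 and 138 in ST, against 860.4, 1107 and 832 in YL (8.89-fold, 2 of 3 ST arrays above the cutoff).

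For Os12g02340 of the same cluster the 2 probe sets were called in opposite directions. One read 3901, 3702 and 3854 in ST, against 1867, 1503 and 2126 in YL (log2 difference 1.07 ± 0.17, adjusted p = 1.8e-04), and the other 375, 1288 and 852 in ST, against 2951, 4305 and 2418 in YL (log2 difference -2.07 ± 0.54, adjusted p = 0.0059). Near-identical family members could be read by the same probes, so which gene each probe set measured is uncertain. The tips also differed for Os12g02320, which averaged 4.83 ± 2.499 in RT (ST minus RT log2 difference 4.54, adjusted p = 4.4e-04).

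Sugar and starch genes were higher in YL in 9 of 16 tested probe sets and in ST in 1. Sucrose-phosphate synthase (Os01g69030), which makes sucrose for export, read 26.7, 25.8 and 24.3 in ST, against 1285, 1824 and 1316 in YL (at least 29.3-fold higher in YL, adjusted p = 2.0e-07). An MtN3/saliva protein (Os05g35140), of the family of SWEET sugar transporters, read 20.6, 25.4 and 22.5 in ST, against 1883, 1549 and 1951 in YL (at least 36.0-fold, adjusted p = 2.6e-08). An ADP-glucose pyrophosphorylase (Os03g52460), the first committed step to starch, was 15.99-fold higher in YL (173 ± 26.02 in ST, against 2785 ± 581 in YL). Isoamylase ISO2 (Os05g32710) was the member higher in ST, at 109, 112 and 119 in ST, against 34.5, 97.4 and 31.5 in YL (log2 difference 1.26 ± 0.40, adjusted p = 0.016). Its call was lost without YL array 1 (log2 difference 1.03) or YL array 3 (0.96). YL array 2 was the highest leaf array here.

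Chromatin and small RNA genes were divided, 5 of 11 tested probe sets higher in ST and 4 in YL. PINHEAD genes, Argonaute proteins that maintain the shoot meristem in Arabidopsis, read 931, 786 and 731 in ST, against 332, 177 and 169 in YL for Os06g51310 (3.77-fold higher in ST, adjusted p = 9.4e-05) and 565, 563 and 274 in ST, against 100.1, 145 and 85.9 in YL for Os06g39640 (4.12-fold). A histone deacetylase (Os12g08220) read 14.2, 16.5 and 7.105 in ST, against 244, 388 and 332 in YL (at least 6.37-fold higher in YL, adjusted p = 1.6e-06). A SET domain protein (Os02g0725200), of the class that methylates histones, was 16.3-fold higher in YL (82.5 ± 16.4 in ST, against 1328 ± 131 in YL). The single probe set of the cytosolic ribosomal group (60S L10-3, Os05g07700) read 40.8, 35.7 and 23.4 in ST, against 77.3, 61.6 and 79.5 in YL (at least 1.46-fold higher in YL, adjusted p = 0.018). Its call was lost without ST array 3 (log2 difference -0.92), YL array 1 (-1.11) or YL array 3 (-1.09). Ribosomal genes known only by platform symbol, outside the group, were brighter and leaned to ST. RPL7A-1 was 2.29-fold higher in ST (3836 ± 327 in ST, against 1704 ± 404 in YL, adjusted p = 7.2e-04). 60SP0 averaged 3487 ± 108 in ST, against 2060 ± 431 in YL, and was under the 2-fold minimum (log2 difference 0.78, adjusted p = 0.0054).

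Similar levels were shown for few genes. The 95% interval of the log2 difference lay within 0.5 of 0 for 392 tested probe sets (1.84%) and within 1 of 0 for 4533 (21.3%), and the median distance from a difference to either end of its interval was 0.72. Most probe sets that were not called therefore had no interval narrow enough to exclude a small change. The brightest of the 392 with a named function was cytosolic fructose-bisphosphate aldolase (Os01g67860), at 2009, 2130.3 and 1826 in ST, against 2321, 1863 and 2318 in YL (log2 difference -0.12, 95% interval -0.47 to 0.23, adjusted p = 0.55). Prolyl 4-hydroxylase (Os10g27340), which modifies wall proteins, read 1415, 1401 and 1451 in ST, against 1806, 1395 and 1506 in YL (log2 difference -0.13, 95% interval -0.48 to 0.22, adjusted p = 0.5). Histidinol-phosphate aminotransferase (Os02g47940) averaged 370.1 ± 25.2 in ST, against 381 ± 42.5 in YL, and a pentatricopeptide protein (Os05g30240) 233 ± 27.1 in ST, against 238 ± 33.2 in YL. The chloroplast isozyme of aldolase named above (Os11g07020) was instead at least 140.3-fold higher in YL.

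The probe sets with the highest signal in each tissue were also counted. Signal also depends on the probes, so an order of probe sets by signal is only a rough order of transcripts. Among the 100 probe sets with the highest mean signal in ST, 30 were higher in ST, none was higher in YL and 70 were not called. Of the 100 brightest in YL, 72 were higher in YL, none in ST and 28 were not called. A single probe set was not always decisive for a gene. Of 501 genes with at least 2 called probe sets, 17 (3.39%) were called in both directions.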

How the data were processed

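RNA of 15 samples, 3 of each of 5 tissues, was hybridised to 1-colour Affymetrix rice arrays. The authors processed the scanned images with GCOS and scaled the arrays together in dChip, and deposited linear signal intensities without detection calls. Such scaling assumes similar overall signal in all tissues. Samples were grouped by their labels, and every column of the table belonged to 1 of the samples. Array medians of the ST and YL arrays were 21.9 to 22.8, and 17943 to 18737 rice probe sets were above the cutoff on each. The number of arrays limits the precision.

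Control probe sets (187) were left out. Signals under 1 were set to 1 and log2 transformed. Of the rice probe sets, 35891 exceeded the cutoff in no tissue on all 3 arrays and were not tested. A mean per tissue was fitted over the 15 arrays with limma 3.58.1 (R 4.3.3; lmFit and eBayes), in place of the permutation-based two-class test of the paper's methods, and p-values of ST minus YL were adjusted by Benjamini-Hochberg over the 21303 tested. A permutation test of single values with 3 against 3 arrays cannot go below an exact p of 0.1, so none was used. Tables and figures were made with Python 3.11.15, pandas 2.3.3 and matplotlib 3.10.9, and the fit was tested on simulated data.

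Names came from the paper's tables (2663 probe sets) and, for 584 more, from a gene symbol shared with one of these in the platform annotation, which can be old. That annotation gives 22436 rice probe sets 1 symbol, 95 several and 34663 none. Gene groups were matched by words in the names, and 19 matches that shared only spelling were removed after values were seen. Members, groups and rules were chosen with earlier results of these data known. Genes named were the 10 largest called bounded differences each way, the 2 largest each way in each group, genes that the paper's text names for leaf or tip, and the 5 highest signals among probe sets whose interval lay within 0.5 of 0. Other members were added after their values were seen. Probe sets ending in s_at or x_at can match related transcripts. Alternatives were other normalizations, cutoffs, low-value handling, fold minimums and arrays in the fit, and leaving out each array. The paper's fold changes and p-values were not used, and its tables served for names and for the direction of its tip comparison only.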

Additional observations from a re-analysis of the deposited data

How the results depend on the processing

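No probe set was called in opposite directions under any alternative. Higher in ST and higher in YL were 5202 and 4614 after quantile normalization, 4648 and 5027 after median centring, 5610 and 6201 without a filter, 3731 and 4440 with signals under the cutoff set to it, and 4896 and 5057 with only the 6 arrays fitted. A 4-fold minimum left 2654 higher in ST and 2964 higher in YL. Leaving out 1 array at a time gave 4260 to 4668 for ST and 4535 to 5054 for YL. Samples of ST and YL that share a replicate number did not deviate together (correlations 0.02, -0.05 and -0.02), so the numbers were not taken as pairs; the fit with the replicate block called 4743 for ST and 4978 for YL. After the data had been seen, fits without the internode arrays (4899 and 5046) and without the arrays labelled RT (4649 and 4960) were added. Of 98 probe sets named by rule, 90 were called, and none reversed in any alternative. Of the 90, 5 lost their call on leaving out 1 array, as given beside them. With signals under the cutoff set to it, DNA replication had 2 probe sets higher in ST, secondary wall 0 and chromatin 3. Signals near the cutoff limit any fold for genes at background in 1 tissue.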

Other observations

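Some probe sets carry a gene symbol in the platform annotation but no name in the paper's tables, and they were looked at after the values were seen. Of 68 such probe sets tested, 14 (20.6%) were higher in ST and 7 (10.3%) higher in YL, beside 23.3% and 16.03% of the 18641 tested probe sets in no table, so neither share is a result about them. The calcium-dependent protein kinase gene CPK23 read 647, 425 and 641 on the ST arrays, against 26.9, 61.7 and 25.6 on the YL arrays (10.5-fold higher in ST, 1 of 3 YL arrays above the cutoff, adjusted p = 5.0e-06). Of 4 kinesins by symbol, none of them in the kinesin group above, 2 were called. KIN4A read 757, 719 and 568 on the ST arrays, against 95.02, 87.4 and 47.9 on the YL arrays (9.09-fold higher in ST, 2 of 3 YL arrays above the cutoff, adjusted p = 5.1e-05), and KIN14H read 247, 294 and 253 on the ST arrays, against 12.4, 56.7 and 13.3 on the YL arrays (5.09-fold higher in ST, 1 of 3 YL arrays above the cutoff, adjusted p = 4.1e-04). The other 2 were not called, although no ST array of either overlapped a YL array. The SE from limma holds the spread within all 5 tissues, not only ST and YL. KIN14I read 512, 678 and 370.2 on the ST arrays, against 144, 87.98 and 108 on the YL arrays (log2 difference 2.18 ± 0.89, adjusted p = 0.053), and KIN7J read 89.7, 102 and 95.2 on the ST arrays, against 53.5, 62.6 and 49.05 on the YL arrays (log2 difference 0.80 ± 0.25, adjusted p = 0.016), the last under the 2-fold minimum.

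Among the 14 were known rice genes of plant form. The leaf width gene NAL1 read 804, 796 and 677 on the ST arrays, against 98.2, 81.6 and 71.5 on the YL arrays (9.11-fold higher in ST, adjusted p = 3.3e-04), and the tiller angle gene TAC1 read 279, 307 and 361 on the ST arrays, against 69.1, 109.9 and 111 on the YL arrays (3.32-fold higher in ST, adjusted p = 0.03). The ST arrays were all above the YL arrays in both, although NAL1 averaged 969.5 ± 282 (SD, n = 3) in RT as well. The xylan arabinosyltransferase gene XAT2 read 599, 703 and 412 on the ST arrays, against 59.8, 64.2 and 43.2 on the YL arrays (9.699-fold higher in ST, 2 of 3 YL arrays above the cutoff, adjusted p = 2.1e-04).

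The genes higher in YL included the following. The multicopper oxidase gene LPR2 read 6.17, 6.303 and 8.91 on the ST arrays, against 154, 108 and 109.96 on the YL arrays (at least 2.47-fold higher in YL, adjusted p = 4.0e-07), with every ST array under the cutoff. The gene HIRL1 read 392, 432 and 444 on the ST arrays, against 2302, 1462 and 1962 on the YL arrays (4.44-fold higher in YL, adjusted p = 1.7e-04), with no overlap between the groups.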
